A study of Mus musculus with 2 samples.

Results

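The genes described here encode the subunits and assembly factors of oxidative phosphorylation. They are the 116 of 48816 features whose symbols start with Nduf (complex I), Sdh and a, b, c or d (complex II), Uqcr (complex III), Cox4 to Cox8 (complex IV) or Atp5 (ATP synthase), together with the mitochondrial symbols that start with mt-Nd, mt-Co, mt-Cytb or mt-Atp. Of the 116 members, 103 are nuclear-encoded and 13 are encoded by the mitochondrial genome. The 103 comprise 96 genes and 7 pseudogenes. By complex, Ndufa4 and Ndufa4l2 are counted with complex IV, and Atp5sl with the assembly factors of complex I. The genes are 36 subunits and 8 assembly factors of complex I, 4 subunits and 4 assembly factors of complex II, 8 subunits of complex III, 19 subunits of complex IV with the supercomplex factor Cox7a2l, and 15 subunits of ATP synthase with the coupling factor Atp5s.

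Nuclei of the stria vascularis, the epithelium on the lateral wall of the cochlea, were taken from CBA/J mice at postnatal day 30 and captured on the 10x Genomics platform, which tags each RNA molecule with a unique molecular identifier (UMI). In the MethFix library the isolated nuclei were fixed in methanol, and in the RNAlater library the tissue was kept in RNAlater before the nuclei were isolated. Each is 1 library of pooled mice (5 and 6 mice in the methods, against 5 to 6 and 10 in the sample labels), and the labels name no drug or genetic change for either. The MethFix matrix holds 4748 barcodes with 21027671 UMIs and the RNAlater matrix 3868 barcodes with 17681824 UMIs, and 3323 barcodes occur in both (70.0% and 85.9%), so the libraries count as 1 sample and no test between samples was possible.

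Barcodes with at least 200 genes and at most 8000 UMIs were clustered in each library without the members, and clusters were named marginal, intermediate, basal, root, spindle or Reissner's membrane from marker genes. Levels are given as CPM, the number of UMIs per 1000000 UMIs, MethFix first and RNAlater second, with exact 95% Poisson intervals that cover counting error only. For nuclear-encoded genes the total leaves out mt- UMIs. At most 10% of UMIs from mitochondrial (mt-) genes were found in 1075 MethFix and 689 RNAlater marginal barcodes, 832 and 521 intermediate, 748 and 609 basal, 86 and 82 root, 96 and 57 spindle and 159 and 154 Reissner's membrane barcodes. The marker list of each class was highest in that class, which follows from the naming. The marginal list, for example, stood at 6438.5 and 6508 CPM in marginal barcodes and at 129 and 116 in intermediate barcodes.

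Oxidative phosphorylation takes place in the inner mitochondrial membrane. Complexes I and II pass electrons from NADH and succinate to complex III, complex IV passes them to oxygen, and ATP synthase uses the proton gradient that complexes I, III and IV build. The marginal cells of the stria vascularis are rich in mitochondria and in sodium-potassium ATPase, and their ion pumping supports the endocochlear potential. Most subunits are encoded by nuclear genes, and a small core is transcribed and translated within the mitochondrion, outside the nucleus.

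All 116 members matched GENCODE M21 on GRCm38. The member Atp5sl carries the symbol Dmac2 there. Cox4i1 (chr8:120668222-120674207, + strand), which encodes the core-bound subunit 4 of complex IV, had 0 UMIs in both libraries. So did Ndufa13, an accessory subunit of complex I. Each of these genes lies wholly within another listed gene on the same strand. The gene that contains Cox4i1 (Gm20388) had 4610 and 4449 UMIs, and the one that contains Ndufa13 (Yjefn3) had 45 and 65 UMIs. The counts of Cox4i1 and Ndufa13 therefore cannot be read as low expression. The muscle form Cox6a2 and the testis form Cox8c were also at 0 in both libraries. In ratios, a group at 0 was set to a floor of 3 UMIs.

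The summed nuclear-encoded members were highest in marginal barcodes. Their level there was 4665 CPM (4603 to 4728) in the MethFix library, and in the RNAlater library 4726 (4658 to 4794). Basal barcodes followed with 3691 and 3836, and intermediate barcodes with 3499 and 3532. Root barcodes had 2739 and 2788, spindle barcodes 2731 and 2640, and Reissner's membrane barcodes 2619 and 2678. The intervals of these last 3 classes overlapped, so their order was not resolved by counting error. The intervals of the summed marginal, basal and intermediate levels did not overlap each other or those of the last 3 classes in either library.

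Single barcodes overlapped between the classes. The median marginal barcode had 4.43 member UMIs per 1000 UMIs not mt- in MethFix (quartiles 3.53 to 5.54) and 4.60 in RNAlater (3.75 to 5.49). The median intermediate barcode had 3.31 (2.54 to 4.22) and 3.50 (2.83 to 4.23). The median basal barcode had 3.05 (2.04 to 4.58) and 3.29 (2.38 to 4.82), below the intermediate median in each library, which is the reverse of the order of the sums. The upper quartile of intermediate barcodes therefore lay above the lower quartile of marginal barcodes in each library. In absolute numbers the median marginal barcode carried 19 and 26 member UMIs, and the median intermediate barcode 13 and 18.

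**Figure D1:**
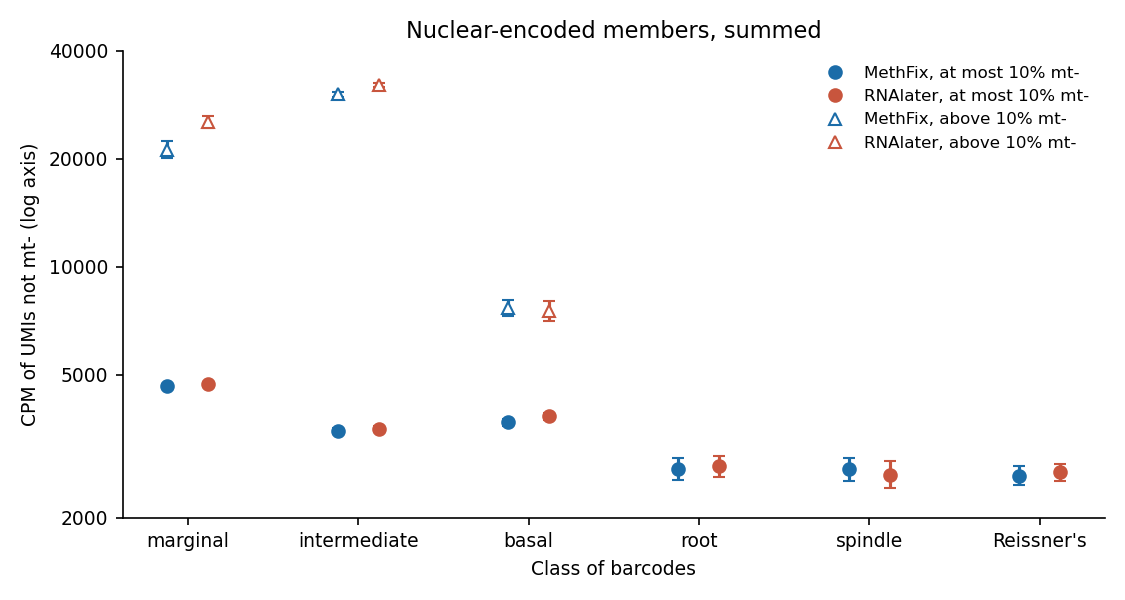
Summed level of the 103 nuclear-encoded members, in CPM of UMIs that are not mt- (log axis), in each class, for MethFix (blue) and RNAlater (red), at most 10% mt- UMIs (filled circles) and above 10% (open triangles, where at least 20 barcodes were found). Bars are exact 95% Poisson intervals. Marginal barcodes at most 10% sit at 4665 and 4726, above the other 5 classes, and intermediate barcodes above 10% sit at 30236 and 32096.

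Against the other 5 classes together, the marginal sum was 1.35-fold higher, with a log2 ratio of 0.44 (0.41 to 0.47) for MethFix, and of 0.43 (0.40 to 0.46) for RNAlater. Member by member, 88 of the 103 reached 10 expected UMIs in both groups of both libraries and were compared. Their median log2 ratio was 0.37, against -0.01 over the 12540 genes compared, and 70 of the 88 lay above 0 in both libraries, against 45.3% of all genes compared. At least 2-fold higher in both libraries were 4 of the 88 members, against a background of 10.4% of all genes, and 0 were at least 2-fold lower, against 17.7%. The 88 members thus moved by less than 2-fold for the most part, and members past 2-fold were rarer than among all genes.

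By complex, the marginal sums were higher throughout. The 4 subunits of complex II, succinate dehydrogenase, had a mean log2 ratio of 0.72 over both libraries. The subunits of ATP synthase had 0.49, those of complex I 0.45, those of complex III 0.30 and those of complex IV 0.26. The 12 assembly factors had 0.58. The part of gene length in the order of the complexes was not tested. Sdha, the flavoprotein of complex II, stood at 229 and 219 CPM in marginal barcodes, against 142 and 143 in intermediate and 124 and 127 in basal barcodes. Atp5a1, the alpha subunit of ATP synthase, stood at 211 and 203 in marginal, 172 and 169 in intermediate and 116 and 120 in basal barcodes. For both genes the marginal level was the highest of the 6 classes in each library.

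**Figure D2:**
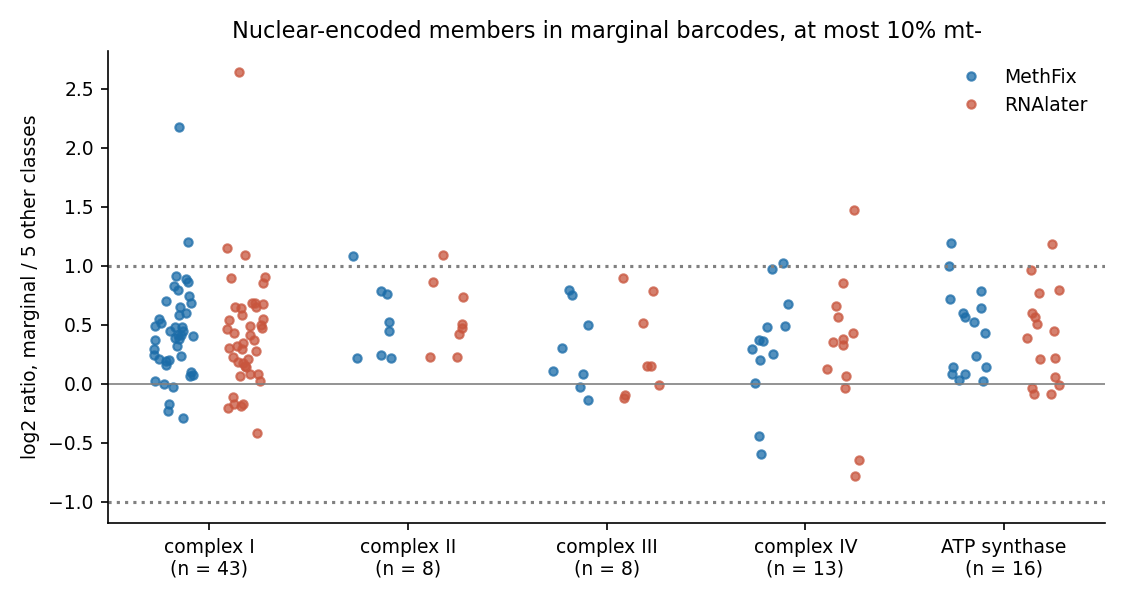
Log2 ratio of marginal barcodes to the other 5 classes for each of the 88 nuclear-encoded members compared (points), by complex with its assembly factors, in MethFix (blue) and RNAlater (red). Dotted lines mark 2-fold. Most points lie between 0 and 1, and 4 members lie above 1 in both libraries.

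Atp5sl, an assembly factor of the membrane arm of complex I, had the highest ratio. Its level was 58.7 CPM in MethFix and 56.5 in RNAlater marginal barcodes, against 13 and 9.06 in the other classes, with log2 ratios of 2.17 (1.81 to 2.55) and 2.64 (2.21 to 3.10). Marginal barcodes were above every other class in both libraries, of which the spindle barcodes of MethFix came nearest with 19.6. In basal barcodes the same gene stood at 8.27 and 6.47 CPM, against 38 and 33.9 elsewhere.

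Ndufaf4, another complex I assembly factor, stood at 87.1 and 75.1 CPM in marginal barcodes and 37.9 and 33.9 in the others (log2 ratios of 1.20 and 1.15). Sdhc, a membrane anchor of complex II, stood at 78.8 and 86.1 against 37.1 and 40.4 (1.09 in both). Atp5s stood at 52.5 and 52.2 against 23.0 and 23.0 (1.19 and 1.18). Spindle barcodes had as much Atp5s as marginal barcodes, with 62.8 and 56.5 CPM from 16 and 11 UMIs. Cox7a1, the heart and muscle form of a complex IV subunit, had log2 ratios of 0.97 and 1.48 and so passed 2-fold in RNAlater only.

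Promoter windows of the members were searched for binding motifs of factors known to act on respiratory genes. In the RefSeq windows of GRCm38.p6 (250 bases before to 50 after a start), 77 of the 96 nuclear genes had a total of 82 windows, and each motif was sought on either strand. The motif of NRF1 (GCGCANGCG) was in 25 of the 82 windows (30.5%), against 6.25% of all 32851 windows. The ETS motif (CCGGAAG) was in 24.4% against 8.86%, the motif of the estrogen-related receptors (TCAAGGTCA) in 2.44% against 0.423%, the YY1 motif (AAGATGGCG) in 8.54% against 1.40% and CCAAT in 41.5% against 37.4%. The motif of the estrogen-related receptors rests on 2 of the 82 windows and the YY1 motif on 7. None of the motifs contains another. A match says only that these letters are present. The upstream parts of 4 windows are shown for members named by the comparisons, with the motifs found in capitals. They are Ndufaf4 for the marginal barcodes, Uqcr11 for the basal barcodes, and Atp5e and Cox7a1 for the root and intermediate barcodes. Ndufaf4 holds the NRF1 motif, Uqcr11 the ETS motif, Atp5e the ETS motif and CCAAT, and Cox7a1 CCAAT, each on either strand. The whole window of Uqcr11 also holds the NRF1 motif, which does not lie wholly within the part shown.
Ndufaf4, chr4:24897833-24898082, + strand: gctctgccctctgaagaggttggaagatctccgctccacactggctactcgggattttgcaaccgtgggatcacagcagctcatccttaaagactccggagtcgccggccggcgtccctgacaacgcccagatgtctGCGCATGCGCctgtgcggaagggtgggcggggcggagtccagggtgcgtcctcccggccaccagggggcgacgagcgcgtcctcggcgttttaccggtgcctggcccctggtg
Uqcr11, chr10:80406822-80407071, - strand: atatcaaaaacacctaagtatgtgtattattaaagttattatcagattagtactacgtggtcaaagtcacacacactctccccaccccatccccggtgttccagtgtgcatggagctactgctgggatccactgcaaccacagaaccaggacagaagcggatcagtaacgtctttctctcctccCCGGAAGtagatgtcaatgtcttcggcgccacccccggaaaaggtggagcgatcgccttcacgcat
Atp5e, chr2:174464102-174464351, - strand: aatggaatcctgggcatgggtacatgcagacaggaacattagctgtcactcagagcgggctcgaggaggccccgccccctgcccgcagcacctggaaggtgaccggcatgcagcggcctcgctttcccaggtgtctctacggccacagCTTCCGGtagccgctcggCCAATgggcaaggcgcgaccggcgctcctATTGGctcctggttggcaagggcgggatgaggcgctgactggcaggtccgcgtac
Cox7a1, chr7:30183921-30184170, + strand: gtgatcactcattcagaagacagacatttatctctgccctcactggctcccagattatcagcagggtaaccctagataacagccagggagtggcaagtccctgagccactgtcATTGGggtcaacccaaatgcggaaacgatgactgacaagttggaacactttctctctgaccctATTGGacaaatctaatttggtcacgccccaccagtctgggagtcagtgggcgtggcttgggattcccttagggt

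Genes that act around the chain were also described by the same ratios. Over all genes compared, 10.4% were at least 2-fold higher in marginal barcodes in both libraries and 17.7% lower. Of the 14 regulators of mitochondrial gene expression, 4 were at least 2-fold higher in marginal barcodes in both libraries. These were the estrogen-related receptors Esrrb (log2 ratios of 7.23 and 7.38), Esrrg (2.96 and 3.00) and Esrra (1.12 and 1.22) and the coactivator Ppargc1a (1.37 and 1.44). Polg, the polymerase of mitochondrial DNA, was lower (-1.72 and -1.64), and the list's median was 0.14. Of the 13 citric acid cycle genes, 1 was at least 2-fold higher (Ogdh, 1.15 and 1.20) and the median was 0.54. Of 11 carriers compared, 2 were higher, the phosphate carrier Slc25a3 (1.35 and 1.54) and the mitochondrial creatine kinase Ckmt1 (3.82, 2.14 to 6.17, and 2.50, 1.51 to 3.61), with a median of 0.60. Of 28 assembly factors outside the member rule, 0 passed 2-fold in either direction, with a median of 0.22. Of 18 glycolytic genes 1 was higher (Pkm, 1.14 and 1.24) and 3 were lower (Eno2, Pdk1 and Slc2a1), with a median of 0.12. The counts for citric acid cycle and glycolytic genes lay near or below the shares over all genes.

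Other measures also differed between the classes. RNAs kept in the nucleus (Malat1, Neat1, Meg3 and Kcnq1ot1, summed) stood at 83183 and 67067 CPM in marginal barcodes and at 182122 and 151240 in intermediate barcodes. Against the other classes, the median log2 ratio of those RNAs was -1.24 in marginal, -0.96 in intermediate and 1.21 in basal barcodes. Over the 3 of them compared there, it was -0.73 in root, -0.58 in spindle and -1.31 in Reissner's membrane barcodes. The member sums were lowest in root, spindle and Reissner's membrane barcodes. Cytoplasmic ribosomal protein genes stood at 1167 and 1175 in marginal barcodes, above their intermediate levels, and at 2129 and 2406 in basal barcodes. The median depth was 4566 and 6057 UMIs in marginal, 4025.5 and 5432 in intermediate and 2507.5 and 3390 in basal barcodes. The part of these in the ratio was not tested. With TMM sizes the marginal sum had a log2 ratio of 0.45.

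Intermediate cells are the melanocytes of the stria vascularis. In their barcodes the member sum was lower than in the remaining classes, with log2 ratios of -0.25 and -0.24, whose mean was -0.10 with TMM sizes and -0.11 with DESeq2 size factors. Of 88 members compared, 0 were at least 2-fold higher (8.12% of all genes were) and 3 were lower (18.7% of all genes were). Cox7a1 stood at 2.46 and 4.27 CPM against 11.5 and 12.7, on 8 and 12 UMIs. Ndufs6, an accessory subunit of complex I, stood at 14.5 and 16 against 31.3 and 37.0. The remaining member was Atp5sl, at 16.6 and 11.0 against 39.1 and 34.6.

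Basal cells seal the stria toward the spiral ligament. Barcodes named basal came from several clusters, of which 1 in each library (252 and 235 barcodes) was led by Sorcs3 and Col27a1. Members were not compared between these clusters. Pooled, the barcodes named basal showed complexes on either side of 0. Complexes III and IV had mean log2 ratios of 0.21 and 0.25, while complex I had -0.16, ATP synthase -0.20 and complex II -0.59. The whole sum had log2 ratios of -0.12 and -0.07, and its direction depended on the scale, since the mean was 0.027 with TMM sizes and 0.036 with DESeq2 size factors. Its size depended on the barcodes taken, since the mean was -0.29 with a limit of 5% mt- UMIs and -0.19 without the upper limit on UMIs, and the MethFix value was -0.50 over barcodes not found in the RNAlater matrix. Those scales moved all basal ratios up by 0.13, all intermediate ratios by 0.14 and all Reissner's membrane ratios by 0.15 and 0.17. With a shift of 0.13, complexes III and IV in basal barcodes stay above 0 and complex II stays below.

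Of 87 members compared in basal barcodes, 2 were at least 2-fold higher, against 10.7% of all genes, and 5 were lower, against 17.1%. Cox7a2l, which joins complexes III and IV into supercomplexes, stood at 61.3 and 74.0 CPM against 26.1 and 26.0. Uqcr11, a small subunit of complex III, stood at 89.1 and 72.6 against 43.9 and 35.0. Both genes were highest in basal barcodes among the 6 classes. Basal barcodes at most 10% also had the highest median mt- share of these classes, at 1.27% and 0.88%. Lower were Atp5sl, Ndufaf4 (19.0 and 19.0 against 68.1 and 59.0), Atp5s (13.1 and 13.9 against 40.7 and 40.4), Atp5g2 (8.27 and 9.25 against 27.8 and 26.4) and Atp5c1, the gamma subunit of ATP synthase (67.2 and 68.4 against 139.9 and 137). For Atp5g2, 49.8% of the stretches of 60 bases in the last 400 bases of its transcripts also occur in other genes. The part of this in its ratio was not tested. The members that were lower in basal barcodes included 3 of the 4 that were higher in marginal barcodes, which are comparisons that share their barcodes. Between intermediate barcodes above and at most 10% mt- UMIs, the mean log2 ratio was 4.71 for Uqcr11 and 3.96 for Cox7a2l. It was 1.00 for Atp5c1, -0.01 for Ndufaf4, -0.85 for Atp5s and -2.10 for Atp5g2. The part of the mt- share in the basal ratios was not tested.

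Root and spindle barcodes were too few for most of the 103 members to be compared. Barcodes named root were pooled from several clusters, of which 1 in each library (14 and 13 barcodes) had only 3 of the 6 root markers detected. Members were not compared between the root clusters. In root barcodes 37 members were compared, of which 4 were at least 2-fold lower (17.6% of all genes) and 0 higher (6.38%). They were Atp5e, at 18.3 and 3.26 CPM from 5 and 1 UMIs (log2 ratios of -1.76, -3.39 to -0.53, and -3.68, -8.99 to -1.20), Uqcr10, Cox6c and Cox6a1. Uqcr10 rested on 4 and 6 UMIs in root barcodes, Cox6c on 8 and 13 and Cox6a1 on 15 and 17. In spindle barcodes 24 were compared, 3 were lower (16.4%) and 0 higher (5.99%). The 3 were Atp5c1 (27.5 and 46.2 CPM), Cox8a (86.3 and 51.4) and Atp5a1 (82.4 and 71.9). They rested on 7 and 9, 22 and 10, and 21 and 14 UMIs in the same order. In Reissner's membrane barcodes 56 were compared, 9 were lower (18.3%) and 0 higher (6.12%). The lower members were led by Ndufab1 (2 and 6 UMIs), Atp5sl (4 and 4), Cox5a (10 and 15), Ndufa12 (5 and 4) and Atp5l (6 and 9). Cox5a, a subunit of complex IV, stood there at 25.0 and 30.8 CPM against 77.5 and 77.5 elsewhere. For Uqcr10 in RNAlater root barcodes the interval of the log2 ratio, -2.55 to 0.04, included 0, as did that for Ndufa12 in MethFix Reissner's membrane barcodes, -2.74 to 0.13.

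Several subunits have more than 1 gene, used in different tissues. Among the forms of complex IV subunit 8, Cox8a (liver form) stood at 172 and 180 CPM in marginal and 221 and 237 in basal barcodes. Cox8b, the heart and muscle form, was found in all 6 classes, from 16.3 CPM in RNAlater root barcodes to 96.4 in MethFix basal barcodes. Its marginal levels of 47.9 and 26.5 were below its intermediate levels of 66.8 and 42.7. The levels of Cox8b differed between the libraries as much as between these classes.

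Of the subunit 7a forms, Cox7a2 stood between 42.8 and 72.1 CPM in the 3 strial classes of both libraries. Among barcodes at most 10%, Cox7a1 reached 16.8 at most, in RNAlater marginal barcodes. It had 0 UMIs in spindle barcodes, which held 257710 and 195377 UMIs in all, too few to resolve a lower level there. Cox6b1 stood at 47.9 and 61.4 in marginal barcodes, whereas the testis form Cox6b2 had 4 and 6 UMIs there, and 17 and 11 in intermediate barcodes. Cox4i2, the lung and hypoxia form of subunit 4, had 7 and 3 UMIs in all barcodes kept, with no usable count of Cox4i1 beside it. Ndufa4l2, the hypoxia-linked relative of Ndufa4, had 4 and 4.

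The c subunit of ATP synthase is made from 3 genes with the same mature protein. Atp5g1 stood at 24.7 and 43.5 CPM in marginal barcodes and at 10.7 and 21.7 in basal barcodes. Atp5g2 stood at 30.0 and 27.0 against 8.27 and 9.25 in the same classes. Atp5g3 had the other order, at 40.1 and 45.8 in marginal and 49.2 and 49.9 in basal barcodes. Atp5g1 also differed between libraries by more than between some classes. Only the last 400 bases of the transcripts were searched for stretches of 60 bases that also occur in other genes. Such stretches made up 33.0% there for Atp5g1, 49.8% for Atp5g2 and 0% for Atp5g3. The levels of Atp5g1 and Atp5g2 are therefore uncertain by more than their counting error.

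Among catalytic and core subunits, most levels were higher in marginal than in intermediate and basal barcodes, and no member named here passed 2-fold against the other classes in both libraries. Ndufs1, the large iron-sulfur subunit of complex I, stood at 118 and 128 CPM in marginal barcodes, 88.4 and 98.3 in intermediate and 70.6 and 71.7 in basal barcodes. Ndufv1, which binds NADH, stood at 32.4 and 29.8, 14.8 and 15.3, and 22.9 and 26.8 in the same order. Uqcrc1, a core protein of complex III, stood at 44.4 and 45.8, 33.0 and 28.1, and 17.5 and 20.8. Uqcrfs1, the Rieske iron-sulfur protein, stood at 27.4 and 26.0, 14.5 and 14.2, and 27.3 and 22.7, so its marginal and basal levels lay close together. Atp5b, the beta subunit of ATP synthase, stood at 139 and 161, 105 and 106, and 115 and 135. Cox5a came nearest to 2-fold, at 107 and 103, 62.8 and 69.1, and 45.3 and 49.5, with log2 ratios of 1.02 and 0.86. Sdhb, the iron-sulfur subunit of complex II, differed least, at 60.8 and 64.9, 58.2 and 61.9, and 46.2 and 46.7.

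Within a class, the nuclear-encoded level was mostly higher where the share of mt- UMIs, which the scale leaves out, was higher. Intermediate barcodes above 20% showed no steady rise. In bins of 20% to 40%, 40% to 60% and above 60%, they had 33473, 29430 and 30728 CPM in MethFix. The RNAlater levels were 32310, 32095 and 34397. Marginal barcodes of MethFix with at most 0.5% mt- UMIs had 4236 CPM of summed members, and those between 5% and 10% had 7088 (6638 to 7559). In basal barcodes the level went from 2379 to 6021 over the same bins in MethFix and from 2484 to 6315 in RNAlater, and to 7508 and 7507 between 10% and 20%. At each bin up to 5%, marginal barcodes of a library were above its basal barcodes, and above its intermediate barcodes where both had a bin. Between 5% and 10% in MethFix, intermediate barcodes had 8045 (7395 to 8737), above the 7088 of marginal barcodes, with overlapping intervals. These bins held 28 intermediate and 39 marginal barcodes. Basal barcodes were below intermediate barcodes in each bin up to 2%, for example at 2379 against 3302 in the lowest bin of MethFix and 2484 against 3376 in that of RNAlater. Between 2% and 5% the levels in MethFix were 4384 and 4283 with overlapping intervals. The order of the basal and intermediate sums over all barcodes at most 10% therefore did not hold at like mt- shares. Ribosomal protein genes went the same way, in MethFix basal barcodes from 1035 to 4175 CPM between the lowest bin and the bin of 5% to 10%, and RNAs kept in the nucleus went from 186711 to 130094. Intermediate markers went in the same basal barcodes from 641 to 2558. The part of these in the difference was not tested.

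**Figure D3:**
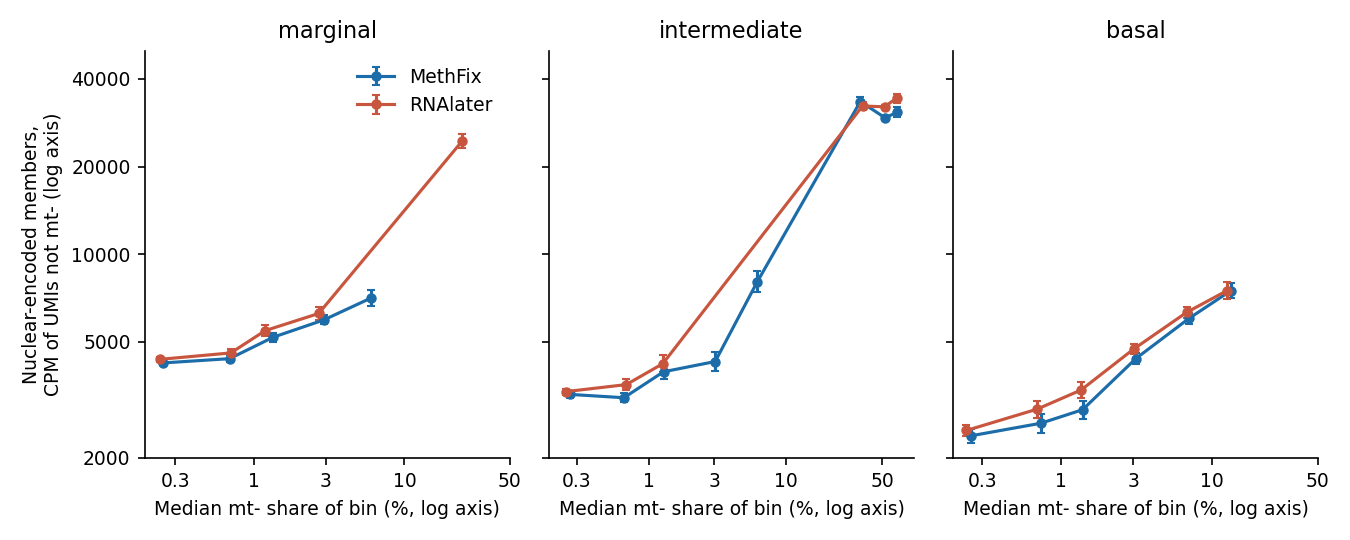
Summed nuclear-encoded members in CPM of UMIs that are not mt- (log axis) against the median mt- share (%, log axis) of bins of at least 20 barcodes, for marginal, intermediate and basal barcodes in MethFix (blue) and RNAlater (red). Bars are exact 95% Poisson intervals. In basal barcodes each bin lies above the one before up to 6021 and 6315, and MethFix intermediate barcodes go from 3302 to 3217 between the first bins. Intermediate barcodes hold no bin between 10% and 20%, and show no steady rise above 20%.

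Above 10% mt- UMIs lay 572 MethFix and 701 RNAlater barcodes named intermediate, with a median mt- share of 53.2% and 52.9%, and far fewer of the other classes (27 and 52 marginal, 57 and 29 basal). They form clusters of their own, in a clustering that left out mt- genes but not the copies of mitochondrial genes in nuclear chromosomes. In MethFix all but 1 come from cluster 2, with a median of 2151 UMIs, while the barcodes at most 10% come mainly from clusters 0 and 8. In RNAlater all but 1 come from clusters 2 and 3, with medians of 1344 and 2763 UMIs, while the barcodes at most 10% come mainly from cluster 0. The leading genes of the clusters above 10% include the mitochondrial copy Gm28438, Fth1 and the members Uqcr11, Cox8b and Cox6c, with Mlana among the leading genes of RNAlater cluster 3 only. Of the RNAlater barcodes above 10%, 338 of 701 are found in that matrix only, against 14 of 572 in MethFix.

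In these barcodes the nuclear-encoded sum stood at 30236 (MethFix) and 32096 (RNAlater) CPM, against 3499 and 3532 at most 10%. The log2 ratios were 3.11 and 3.18. For marginal barcodes the levels above 10% were 21194 and 25390 (2.18 and 2.43, with a mean of 1.90 under TMM sizes), and for basal barcodes 7684 and 7549 (1.06 and 0.98, and for MethFix 1.80 over barcodes not found in the RNAlater matrix). Every one of the 5 complexes was higher in intermediate barcodes above 10%, complex IV most (mean log2 ratio of 4.05), then complex III (3.49), ATP synthase (2.90), complex I (2.83) and complex II (1.90). The complexes also differ in gene length. The complex II subunits compared span 7456 to 28027 bases, and the complex IV members 1502 to 15413. The part of gene length in this order was not tested. The sum of the 12 assembly factors was at 0.38, while the median over the 7 of them compared was -0.21, of which 1 was at least 2-fold higher and 1 lower.

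Of 81 members compared, 65 were at least 2-fold higher in both libraries (80.2%), against 25.8% of the 7821 genes compared, and 2 were lower, against 31.9%. The median over the members was 3.24, and over all genes -0.25. Cox7a1 led with 136 and 114 CPM above 10%, against 2.46 and 4.27 at most 10% (log2 ratios of 5.79 and 4.73). Atp5e, the epsilon subunit of ATP synthase, stood at 993 and 697 against 37.3 and 19.2. Cox6c stood at 1261 and 1833 against 55.1 and 58.7, Uqcr11 at 1047 and 791 against 40.7 and 29.9, and Ndufa1 at 589 and 320 against 21.9 and 15.7. These are small subunits of complexes IV, III and I and of ATP synthase.

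Atp5g2 and the assembly factor Ndufaf5 were lower. Atp5g2 stood at 4.43 and 8.31 CPM above 10%, on 3 and 6 UMIs, against 25.6 and 26.3 (log2 ratios of -2.53, -4.84 to -0.93, and -1.66, -3.16 to -0.47), while the other c subunit genes were higher (Atp5g1 at 102 and 302, Atp5g3 at 464 and 621). Ndufaf5 stood at 8.86 and 4.16 against 25.9 and 24.9, on 6 and 3 UMIs (-1.55, -3.03 to -0.36, and -2.58, -4.90 to -0.98). Ndufaf4 (-0.01), Ndufs3 (0.01) and Ndufs4 (-0.35) had ratios near 0. In the last 400 bases of the transcripts, stretches of 60 bases were sought that also occur in other genes. They made up 49.8% there for Atp5g2, 33.0% for Atp5g1 and 22.6% for Ndufs3. For Atp5g3, Ndufaf5, Ndufaf4 and Ndufs4 the share was 0%. The part of shared stretches in these ratios was not tested.

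Shorter members had higher ratios. The 24 members of 5 kb or less had a median log2 ratio of 4.07 (3.05 to 5.26), the 43 members over 5 and up to 20 kb 3.15 (-2.10 to 4.74) and the 14 longer members 0.72 (-2.07 to 2.46). Over the 81 members Spearman's rho with gene length was -0.73, a description across genes that share the same barcodes. All genes with a RefSeq length showed the same order at lower values, with medians of 2.65 over 505 genes of 5 kb or less, 0.74 over 1901 genes and -0.76 over 4979 genes. Within each length class the members' median was higher than that of all genes, a comparison with no test.

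**Figure D4:**
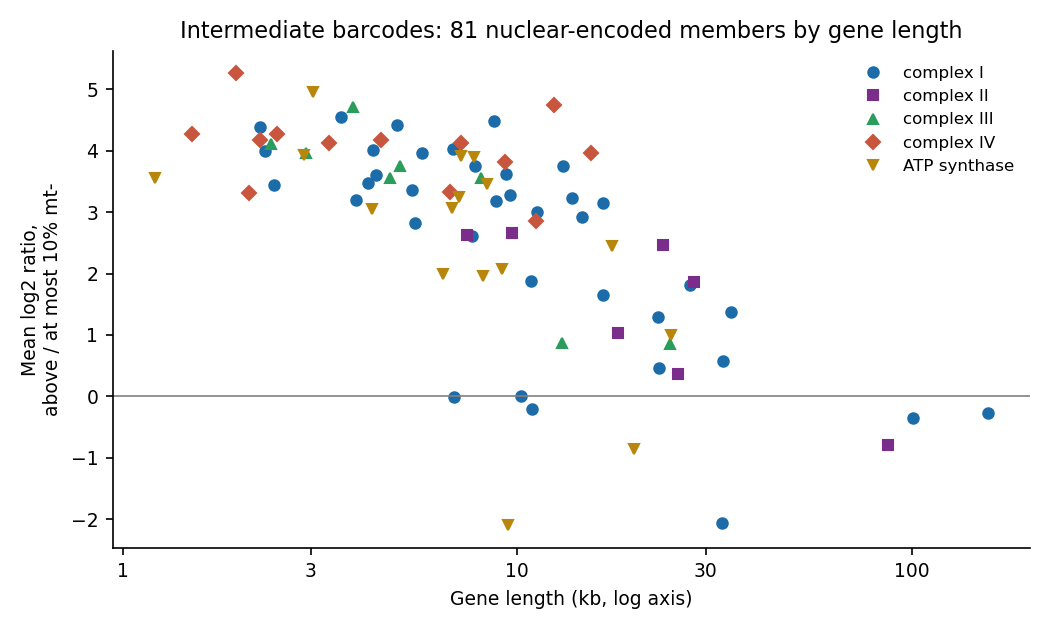
Mean log2 ratio of intermediate barcodes above to those at most 10% mt- UMIs, over both libraries, against gene length (kb, log axis), for the 81 nuclear-encoded members compared, with a symbol for each complex and its assembly factors. The 24 shortest members lie between 3.05 and 5.26 and the 14 over 20 kb between -2.07 and 2.46.

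Many other transcripts moved the same way in these barcodes. Ribosomal protein genes went from 1008 and 1001 to 11736 and 13806 CPM, with 31 of 36 compared at least 2-fold higher. Of 16 glycolytic genes, 10 were higher, and the list went from 1560 and 1578 to 7914 and 7754. Higher too were 7 of 10 carriers, 5 of 13 citric acid cycle genes and 6 of 21 assembly factors outside the member rule, while 1, 0 and 4 were lower. Over all 7821 genes compared, 25.8% were higher and 31.9% lower. The assembly factors outside the rule, with a median log2 ratio of 0.29, were higher at near that share. RNAs kept in the nucleus went from 182122 and 151240 to 8100 and 7904, and the regulators of mitochondrial gene expression had 2 of 12 higher and 5 lower. The intermediate markers went from 30073 and 27908 to 19430 and 20598, with 6 of 7 found and Tyrp1 at 0 above 10% in both libraries. The 6 marginal markers, all found, went from 129 and 116 to 2254 and 1956. Schwann cell markers went from 224 and 227 to 790 and 806, with 4 of 5 found and Mag at 0 above 10%. Markers of macrophages, endothelial cells and pericytes were at or below 14.8 CPM each, with Ptprc and Pecam1 at 0 above 10%. The part of these in the ratio was not tested. Scaled by all UMIs, mt- included, the sum had a log2 ratio of 2.14. This scale adds the mt- UMIs by which the barcodes were split, so a lower ratio follows from the split itself.

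The mitochondrial-encoded members were highest in basal barcodes among those at most 10%, with 12212 and 11162 CPM of all UMIs. Marginal barcodes had 5241 and 3895, intermediate barcodes 4130 and 2706, and Reissner's membrane barcodes 1988 and 2126. The order of the classes thus differed from that of the nuclear-encoded members. For every nuclear-encoded UMI, basal barcodes had 3.40 and 2.98 mitochondrial-encoded UMIs and marginal barcodes 1.13 and 0.83. The basal clusters were unlike each other in mt- share. Over all their barcodes, MethFix cluster 4 had a median of 4.92% and RNAlater cluster 6 of 4.41%. The remaining basal clusters had 0.81% and 0.58% in MethFix and 0.43% and 0.49% in RNAlater. Spindle barcodes differed between libraries, with 5266 against 1976 CPM. Levels at most 10% are bounded by the limit, and those above it are set by it, so that the 273169 and 281731 CPM in intermediate barcodes above 10% describe the split and nothing else.

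Among themselves, the 13 mitochondrial members had a similar composition in both libraries. Over all barcodes kept, mt-Nd2 took 25.0% and 25.5% of their UMIs, mt-Cytb 24.6% and 23.7%, mt-Nd4 21.9% and 21.3% and mt-Nd1 15.7% and 16.8%, in all 87.3% and 87.3%. Per kb of gene, mt-Nd2 had 115885 and 165483 UMIs, mt-Cytb 103488 and 139997, mt-Nd1 78899 and 118260 and mt-Nd4 76194 and 104336. mt-Co1, the catalytic subunit of complex IV, took 5.45% and 5.14%, mt-Nd5 4.85% and 4.47% and mt-Atp8 1.79% and 1.77%. mt-Nd6, the only member on the other strand, took 0.147% and 0.154%. Complex I subunits made up 68.5% and 68.0% of the UMIs in intermediate barcodes above 10%, and 65.2% and 70.3% in marginal barcodes at most 10%. mt-Cytb ranged from 21.1% to 29.2% over the classes, sides and libraries.

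The remaining 5 members had few UMIs. mt-Co2 had 168 and 969 UMIs, mt-Co3 281 and 1038, mt-Atp6 890 and 4974, mt-Nd3 50 and 100 and mt-Nd4l 1038 and 1043, and together they took 0.505% and 1.20%. Per kb, mt-Co2 had 246 and 1417 UMIs. For these 5 genes between 97.9% and 100% of the stretches of 60 bases also occur in another listed gene, a copy of mitochondrial DNA in a nuclear chromosome. For mt-Nd2, mt-Cytb and mt-Nd1 the share was 7.15% or less, for mt-Co1 46.5% and for mt-Nd4 61.9%. Reads that match a gene and its copy equally cannot be assigned to either, so the levels of these 5 members and of the complexes they belong to are uncertain.

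The sequences show this for 80 bases that end 20 bases before the end of the transcript, from GENCODE M21. For mt-Co2 they are identical to Gm28661 (chr1:24614885-24615565, - strand). For mt-Cytb they differ at 5 positions from Gm11410 (chr4:80003989-80005131, + strand), with the differing bases in capitals.
mt-Co2 and Gm28661: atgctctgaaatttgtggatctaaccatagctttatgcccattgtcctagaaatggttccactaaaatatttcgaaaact
mt-Cytb: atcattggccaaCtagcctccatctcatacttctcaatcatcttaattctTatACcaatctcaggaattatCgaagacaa
Gm11410: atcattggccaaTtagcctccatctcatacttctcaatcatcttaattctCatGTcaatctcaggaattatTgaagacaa

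**Figure D5:**
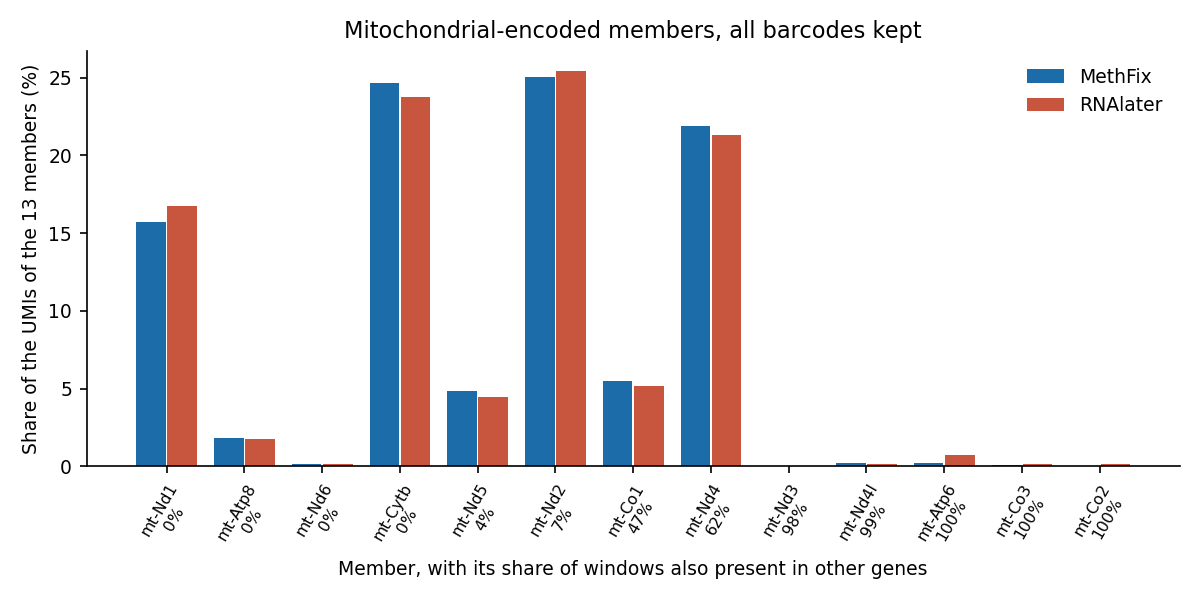
Share of the UMIs of the 13 mitochondrial-encoded members (%) taken by each, over all barcodes kept, in MethFix (blue) and RNAlater (red), ordered by the share of the gene's 60-base stretches that also occur in other genes (given under each name). The 5 members at 98% or more take under 1% each.

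The copies had few UMIs with 1 exception. Gm28661, Gm28437 and Gm10925, the copies of mt-Co2, mt-Co3 and mt-Atp6 on chromosome 1, had between 105 and 333 UMIs in a library. Gm28438, the copy of mt-Nd3, had 34471 in MethFix and 11951 in RNAlater. In intermediate barcodes above 10% the 9 copies together stood at 43431 and 12038 CPM, against 188 and 55.5 at most 10%. Leaving the copies out of the scale changed the log2 ratio of the nuclear-encoded sum from 3.15 to 3.19.

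Because 2894 barcodes were kept in both libraries, each member could also be set against itself in the same barcodes. The nuclear-encoded sums were close, at 5923 CPM in MethFix and 6080 in RNAlater. Of 85 members with at least 100 expected UMIs, 6 were higher in RNAlater by at least 0.5 on the log2 scale, against 1.21% of 9477 genes, and 7 were lower, against 0.591%. Lower were Cox7c (68.9 against 171 CPM), Ndufs5 (22.9 against 53.1), Ndufb8, Ndufc1, Ndufa1 (42.0 against 73.1), Cox8b (93.9 against 153) and Atp5l. Among the higher members were Atp5h (42.5 against 17.5), Atp5g1 (51.6 against 22.1), Ndufa3, Atp5o and Ndufa4. Of the 13 members, 7 share stretches of 60 bases in the last 400 transcript bases with other genes (7 of the 31 such members compared). The other 6 do not (6 of 54). The levels of these 13 members are therefore uncertain between libraries by more than their counting error. None of the 4 members past 2-fold in marginal barcodes was among them.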

How the data were processed

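Single-nucleus libraries were made from mouse stria vascularis at postnatal day 30. Reads were aligned to GRCm38 with Cell Ranger (version 3.0.1), and the authors deposited for each library a matrix of raw UMI counts per gene and called barcode. The methods name the pipeline's defaults and the mm10 genome that 10x Genomics offers, and do not name introns. The deposited feature list also holds spike-ins and transgenes, so whether intronic reads were counted cannot be read from this.

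Barcodes with at least 200 genes and at most 8000 UMIs were kept, and doublets marked by Scrublet with an expected rate of 0.1 (341 MethFix and 49 RNAlater barcodes) were left out, which left 4001 and 3437. Each library was clustered in Scanpy (version 1.11.5; 4000 variable genes, 30 components, 10 neighbours, Leiden with leidenalg 0.10.2, where the resolution was 1 (MethFix) or 1.5 (RNAlater)) without members, mt- genes and pathway genes. A cluster was named from its marker list when its score was at least 1, exceeded the next list by at least 1, and rested on at least 3 detected markers. This rule was set after the clusters were seen. Of 2494 barcodes kept and named in both libraries, 2490 had the same name.

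UMI counts were summed over the barcodes of a class. Genes with at least 10 expected UMIs in both groups of both libraries were compared, and a gene was called when it differed by at least 2-fold in the same direction in both libraries. The text names the 13 mitochondrial members, the first 5 called members in each direction by mean log2 ratio with at least 50 UMIs in the higher group of each library, isoform families and catalytic subunits. Other genes are named from the pathway lists. The values of 1 member are not reported here. As the libraries share barcodes, no test, p-value or replicate error is given. Intervals are exact 95% Poisson intervals for levels and exact binomial intervals for ratios and shares, and cover counting error only. The depth was 501 to 134970 UMIs a barcode in MethFix and 506 to 41153 in RNAlater. Members and gene lists were chosen with earlier results of these data known.

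Coordinates and overlaps came from GENCODE M21, promoters and gene lengths of all genes from RefSeq. Stretches of 60 bases shared with other genes were sought in the last 400 bases of the transcripts of nuclear-encoded members. For mitochondrial-encoded members the whole transcript was used. Alternatives used edgeR (version 4.0.16, TMM) and DESeq2 (version 1.42.0) for library sizes only, in R (version 4.3.3). The scripts were tested on simulated data. SciPy (version 1.17.1) was used for intervals.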

Additional observations from a re-analysis of the deposited data

Results flagged for a closer look

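Barcodes above 10% mt- UMIs that received no class name also carried nuclear-encoded members, which no comparison of classes used. Their summed level was 15858 CPM of UMIs not mt- in MethFix (39 barcodes) and 29134 CPM in RNAlater (332 barcodes), against 4010 and 4337 CPM in unnamed barcodes at most 10%. In RNAlater most of them came from cluster 4 (257 barcodes, 254 above 10%), whose best list was the intermediate markers.

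Gm28438, a copy of mt-Nd3 outside the mitochondrial genome and not a member, had 34471 UMIs in MethFix and 11951 in RNAlater, whereas mt-Nd3 itself had 50 and 100 UMIs.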

How the results depend on the processing

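The marginal ratio of the summed nuclear-encoded members, 0.44 on the log2 scale, kept its direction under every alternative run. It was 0.55 without the upper limit on UMIs, 0.57 over barcodes found in the MethFix matrix and not in the other, and 0.50 with a limit of 5% mt- UMIs. The count of members past 2-fold, 4, was 23 at a fold of 1.5 (22 higher and 1 lower), 8 without the upper limit on UMIs (7 higher and 1 lower) and 7 over MethFix-only barcodes. In the other 12 alternatives it was 4 to 6. The shares over all genes under these alternatives are not given here, so the counts have no background to be read against. The basal sum, -0.10, changed sign, to 0.027 with TMM sizes and 0.036 with DESeq2 size factors, and was -0.19 without the upper limit on UMIs, -0.50 over MethFix-only barcodes and -0.29 with a limit of 5%.

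For intermediate barcodes, the ratio above against at most 10% mt- UMIs, 3.15, was 2.14 when scaled by all UMIs, 3.08 with doublets kept, 3.10 with a limit of 20%, 3.83 over MethFix-only barcodes (14 above 10%) and 3.19 with the copies of mitochondrial genes left out of the scale, an alternative chosen after seeing the data. For marginal barcodes the same ratio, 2.30, was 1.75 to 2.08 under 8 alternatives, and for basal barcodes, 1.02, it was 0.82 when scaled by all UMIs, 1.15 with doublets kept and 1.80 over MethFix-only barcodes (12 above 10%). The intermediate count of members past 2-fold, 67 of 81 compared, ran from 46 to 73. In the main setting 25.8% of all genes compared were higher and 31.9% lower. The numbers compared and the shares over all genes under the alternatives are not given here, so this range has no background. Over MethFix-only barcodes no member could be compared. The basal to marginal log2 ratio of mitochondrial-encoded members, 1.37, was 1.19 with doublets kept, 0.96 without the upper limit, 1.48 over barcodes in both matrices, 0.64 over MethFix-only barcodes, 0.76 with a limit of 5% and 1.50 with 20%. The share of complex I among mitochondrial-encoded UMIs of intermediate barcodes above 10%, 68.2%, was 49.9% over MethFix-only barcodes and 68.6% without the 5 members that have near-identical copies, also chosen after seeing the data. Where the construction of an alternative does not show the cause of a change, the cause was not tested.

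No analysis of paired samples was possible because each preservation method has 1 library and the labels give no replicate numbers. The comparison within the 2894 barcodes kept in both libraries set each member against itself and had no replicates. Counting error limits root and spindle barcodes, where most members were not compared, and Reissner's membrane barcodes, where 56 of 103 were, and no replicate spread is known.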
